A study of Mus musculus with 13 samples.

Results

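Genes for translation factors and tRNA synthetases were compared in 3 populations of splenic CD4 T cells of mice. They were chosen by symbol: every gene in the deposited table listed as Eif1 to Eif6 or as Eef1 or Eef2 with any ending, except the Eif2ak kinases, every synthetase symbol made of 1 letter and ars or ars2, and Eprs. The rule found 98 symbols on 100 of the 18649 genes in the table, because Eif2c2 and Eif4e3 are each listed under 2 identifiers. Symbols starting with Eif2c (5 genes) are older names of the Argonaute genes, which act in silencing by small RNAs and not in translation as factors. Another 4 symbols name pseudogenes. The remaining 91 genes were 18 cytosolic and 17 mitochondrial synthetases, 49 initiation factor genes and their binding proteins, among them eIF5A, and 7 elongation factor genes.

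RNA was sequenced from 3 sorted populations. PD1hi cells (3 libraries) were CD4+ and negative for the Foxp3 GFP reporter, with a high level of PD-1, an inhibitory receptor of activated T cells. Treg cells (5 libraries) were CD4+, carried the reporter of the regulatory T cell factor Foxp3 and lacked PD-1, and Tconv cells (5 libraries) were CD4+ and lacked both. The labels name no strain, age, treatment or number of animals, and titles number the experiments 3, 5 and 6, each with all 3 populations.

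Translation starts when eIF2 brings the initiator tRNA to the small ribosomal subunit and the eIF4F complex brings the capped mRNA. The eIF3 complex holds them together, and start codon recognition releases the factors. During elongation eEF1A delivers aminoacyl tRNAs, the eEF1B subunits reload it with GTP, and eEF2 moves the ribosome along the mRNA. Aminoacyl tRNA synthetases charge each tRNA with its amino acid, mostly with separate genes for the cytosolic and the mitochondrial enzyme. Gars and Kars encode both forms and were counted as cytosolic. T cells have a low rate of protein synthesis at rest and raise it on activation.

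Libraries held 15971126 to 24216463 reads in genes. Pdcd1, which encodes PD-1, was at 33610.1 to 39713 scaled counts in PD1hi libraries, 1715 to 2266 in Treg libraries and 901 to 1374 in Tconv libraries. Foxp3 was at 67.7 to 129 in PD1hi, 12904 to 18885 in Treg and 232 to 332 in Tconv libraries, so both sort genes followed the labels. On the PD1hi side the library of experiment 6 (score -53.3), and among Treg libraries the second of experiment 3 (-50.7), stood apart on principal component 3, which took 7.88% of the variance, while the other 11 libraries scored -12.2 to 35.4. That Treg library also differed from the first one of the same experiment more than other repeat pairs did, with a chi-square per degree of freedom of 73.5 over all genes, against 7.77 to 9.05 in the other 3 pairs. Results that rest on these libraries are given with and without them.

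Levels below are scaled counts. A mean ± SD is over 3 values, 1 per experiment (n = 3), with libraries of the same experiment and population averaged. Fold changes are log2 values ± SE of log2(scaled count + 1) from limma, fitted over the 14177 genes whose mean over the libraries reached 10, and a change was called at a Benjamini-Hochberg adjusted p under 0.05. In sorted cells in bulk, fewer cells that express a gene and less RNA per cell cannot be told apart.

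In PD1hi against Tconv, 2 of the 98 genes that passed the filter were higher and 25 lower, while 71 did not pass the test. Over all genes tested, 14.2% were called higher and 11.9% lower, 26.1% in all. The median log2 fold change was -0.24 over the 98 genes and 0.00 over all genes tested. The other 2 genes of the rule, Eif2c4 and Eif4ebp3, were under the filter. In PD1hi against Treg, 1 gene was higher and 4 were lower, where 8.16% and 8.39% of all genes were called. In Treg against Tconv, 2 were higher and 10 lower, where 8.73% and 5.66% of all genes were called. Without PD1hi of experiment 6 the count of lower genes in PD1hi against Tconv was 21, and it was 15 without Tconv of experiment 3 and 16 without Tconv of experiment 6. In PD1hi against Treg, 2 genes were higher without PD1hi of experiment 3 or 6, Tconv of experiment 6 or the second Treg library of experiment 3. The lower genes there numbered 6 without PD1hi of experiment 3 or that Treg library, and 5 without PD1hi of experiment 5. In Treg against Tconv the lower genes numbered 1 without Treg of experiment 5, 2 without Treg of experiment 6 or Tconv of experiment 3 or 6, and 5 without Tconv of experiment 5 or the second Treg library of experiment 3, while 1 gene was higher without any single Treg value or Tconv of experiment 3 or 6. With libraries rescaled to equal totals, the higher and lower genes numbered 2 and 17 in PD1hi against Tconv, 1 and 4 in PD1hi against Treg, and 2 and 5 in Treg against Tconv. The 3 comparisons share their samples, so they are not independent of each other.

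**Figure D1:**
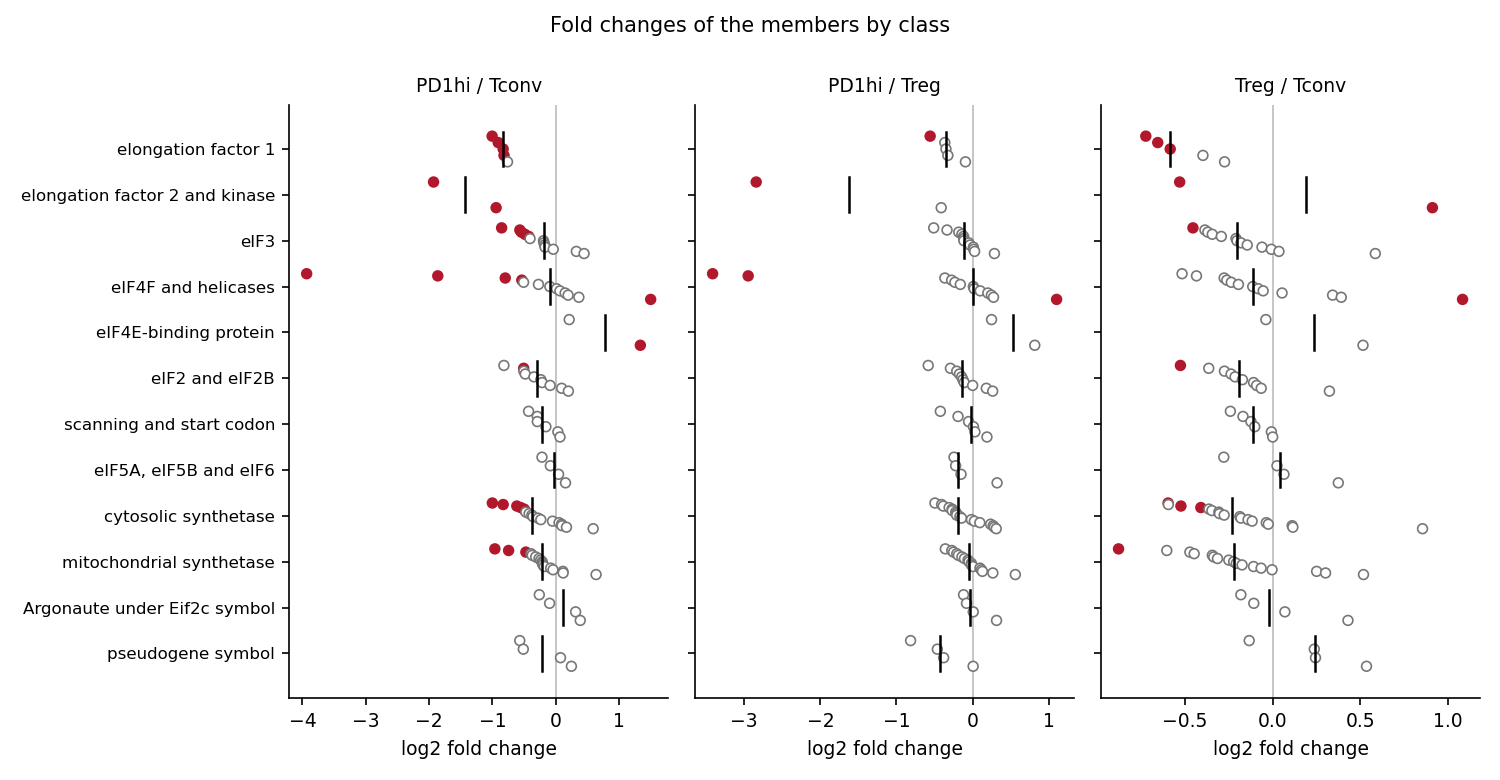
Log2 fold changes of the 98 tested genes by class, 1 point per gene, for PD1hi over Tconv (left), PD1hi over Treg (middle) and Treg over Tconv (right). Filled red points passed the test (limma adjusted p under 0.05), open points did not, black ticks are class medians, and the x axes differ between panels. Every gene of the 2 elongation factor classes lies below 0 in PD1hi against Tconv and in PD1hi against Treg.

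Of the 7 elongation factor genes 6 were lower in PD1hi than in Tconv, where 11.9% of all genes tested were called lower. Among the 6 was the most abundant gene of the rule. In PD1hi against Tconv 4 of 5 genes listed under Eef1 and both Eef2 and Eef2k were lower, by 1.76-fold (Eef1g) to 3.81-fold (Eef2k), and the fifth, Eef1e1, did not pass the test. Together Eef1a1, Eef1b2, Eef1d, Eef1e1, Eef1g and Eef2 took 1.00067% ± 0.0505 of all reads in genes in PD1hi, 1.21% ± 0.078 in Treg and 1.78% ± 0.11 in Tconv. The genes of the rule took 2.65% ± 0.096, 2.89% ± 0.18 and 3.66% ± 0.21 of reads in PD1hi, Treg and Tconv.

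Eef1a1 (ENSMUSG00000037742), which encodes the factor that brings aminoacyl tRNA to the ribosome, had the highest level per length of all genes of the rule in each population. It stood at 51727 scaled counts per kb of merged exon in PD1hi, 65500.3 in Treg and 103415 in Tconv. Library values were 145516, 131640 and 109712 in PD1hi. In Treg they were 195179, 148325, 162575, 154643 and 156456, and in Tconv 281407, 243558, 233414, 259887 and 247209. All PD1hi libraries lay below all Treg libraries, and these below all Tconv libraries. The difference was -1.01 ± 0.16 in PD1hi against Tconv (adjusted p = 0.000534) and -0.66 ± 0.16 in Treg against Tconv (adjusted p = 0.0144), while -0.35 ± 0.16 in PD1hi against Treg did not pass the test (adjusted p = 0.174). The call in Treg was lost without Treg of experiment 5 or 6 or Tconv of experiment 3.

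Eef2 (ENSMUSG00000034994), the translocation factor, came next per length, with 11658 in PD1hi, 15554 in Treg and 22439 in Tconv per kb. Its library values were 37852, 41176 and 37230 in PD1hi, 69967, 42557, 45364, 55374 and 51585 in Treg, and 81056, 73508, 63688, 79420 and 68798 in Tconv. PD1hi libraries were below all others, and the first Treg library of experiment 3 reached into the range of Tconv. Eef2 differed by -0.94 ± 0.14 in PD1hi against Tconv (adjusted p = 0.000296) and by -0.53 ± 0.14 in Treg against Tconv (adjusted p = 0.021), which was lost without the second Treg library of experiment 3, Treg of experiment 5 or Tconv of experiment 3 or 6. The difference of -0.41 in PD1hi against Treg did not pass the test, but Eef2 was called lower there without the second Treg library of experiment 3.

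The eEF1B subunits, which exchange GDP for GTP on eEF1A, were lower as well. Eef1b2 averaged 5235 ± 558 in PD1hi, 6607 ± 1294 in Treg and 9809 ± 673 in Tconv, a difference of -0.91 ± 0.15 in PD1hi against Tconv (adjusted p = 0.000834) and -0.59 ± 0.15 in Treg against Tconv (adjusted p = 0.022). The second of these was lost without Treg of experiment 5 or 6 or Tconv of experiment 3 or 6. Eef1g averaged 9764 ± 503 in PD1hi, 10455 ± 1271 in Treg and 17260.5 ± 1791 in Tconv. Its level was lower in both PD1hi (-0.82 ± 0.13, adjusted p = 0.000677) and Treg (-0.72 ± 0.13, adjusted p = 0.00282) than in Tconv, and PD1hi and Treg libraries overlapped. Eef1d kept the order of the populations but differed in which comparisons passed. Its library values were 3199, 3260 and 3271 in PD1hi, 5126, 5816, 4506, 4337 and 4475 in Treg, and 6070, 5681, 5480, 6164 and 5191 in Tconv. Here PD1hi stood below both others, by -0.56 ± 0.12 against Treg (adjusted p = 0.00741) and by -0.83 ± 0.12 against Tconv (adjusted p = 0.000325). Treg against Tconv gave -0.27 ± 0.12 and did not pass the test (adjusted p = 0.185). Eef1e1, whose product is a scaffold of the multisynthetase complex despite its symbol, averaged 619 ± 235 in PD1hi, 779 ± 224 in Treg and 1019 ± 249 in Tconv (-0.76 ± 0.29 in PD1hi against Tconv, adjusted p = 0.0761).

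**Figure D2:**
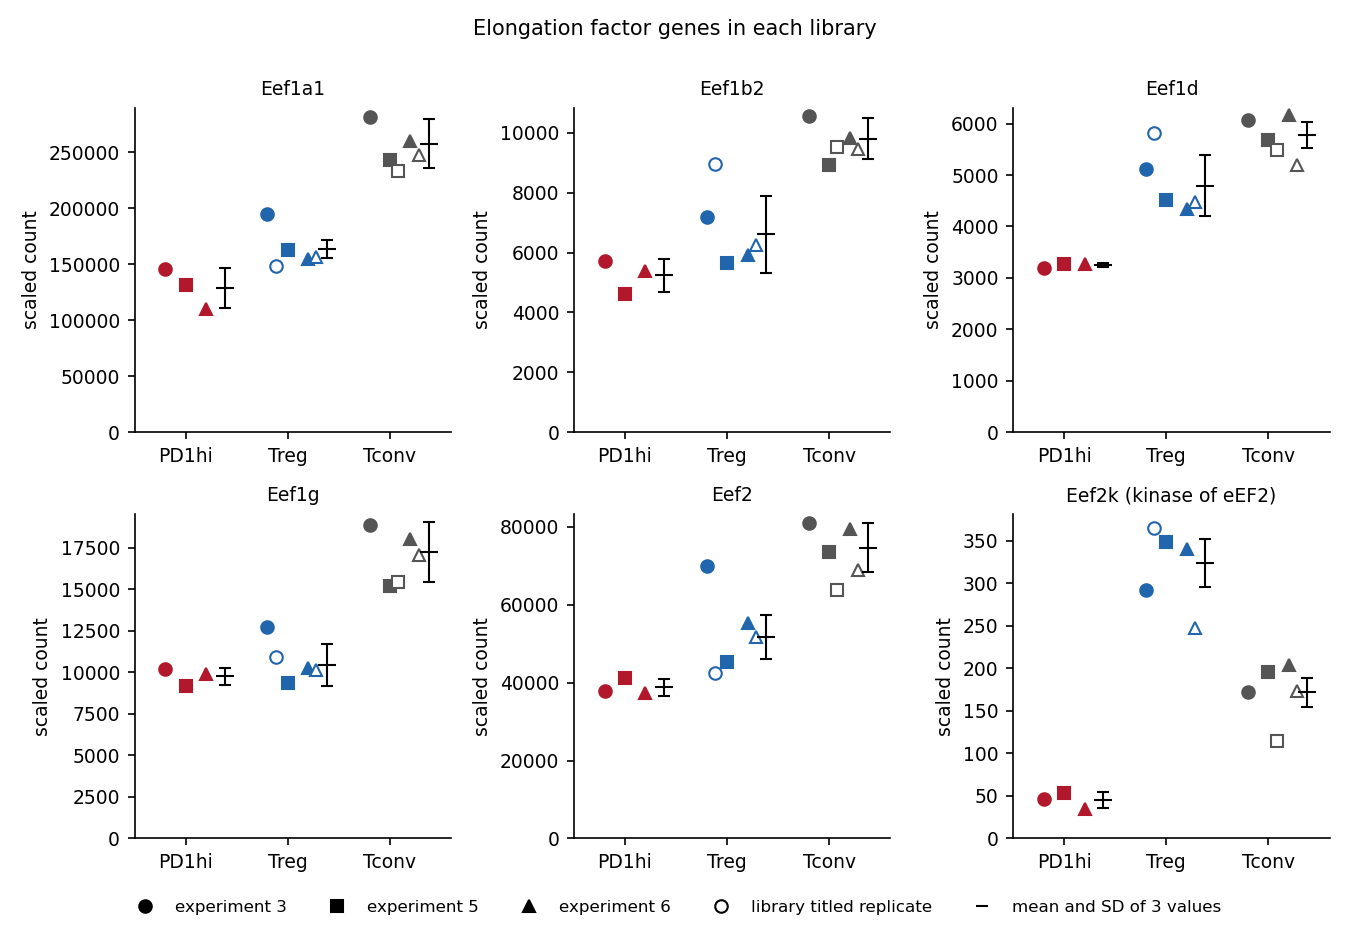
Scaled counts (y axis, from 0) of 6 elongation factor genes in each library of PD1hi, Treg and Tconv. Symbols mark the experiment, open symbols the libraries titled as replicates, and the bars the mean ± SD of 3 values per population. In all 6 panels the 3 PD1hi libraries lie below the 5 Tconv libraries, and for Eef2k the Treg libraries lie above both.

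Eef2k (ENSMUSG00000035064) encodes the calcium dependent kinase that phosphorylates eEF2 and thereby slows elongation. It was a low transcript with a different order of populations. Library values were 46.1, 53.5 and 34.8 in PD1hi, 292, 365, 349, 339.98 and 248 in Treg, and 172, 196, 114, 204 and 173 in Tconv. The ranges of the 3 populations did not overlap, with PD1hi lowest and Treg highest. The level was 3.81-fold lower in PD1hi than in Tconv (-1.93 ± 0.24, adjusted p = 8.71e-05) and 7.18-fold lower than in Treg (-2.84 ± 0.24, adjusted p = 6.21e-06). Treg exceeded Tconv by 0.91 ± 0.24 (adjusted p = 0.0225), a call that was lost when any single Treg or Tconv value was left out (adjusted p up to 0.0866). Per 1000 scaled counts of Eef2, a ratio within the same libraries, Eef2k came to 1.15 ± 0.19 in PD1hi, 6.34 ± 1.18 in Treg and 2.31 ± 0.22 in Tconv. The 3 PD1hi values of this ratio, 0.934 to 1.3, were below the 3 Tconv values, 2.12 to 2.54.

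RefSeq gave promoter sequences for 70 of the 98 symbols. The windows of the genes with the highest levels per length (Eef1a1, Eef2), of the eEF2 kinase and of the synthetase with the largest change (Iars) are shown. All were called lower in PD1hi than in Tconv, but in Treg against Tconv Eef2k was higher while Eef1a1 and Eef2 were lower. Each runs from 120 bases before to 30 bases after the annotated start, 5′ to 3′ on the gene's strand, in GRCm38.p6. Eef1a1 is at chr9:78481695-78481844 on the minus strand, Eef2 at chr10:81176511-81176660, Eef2k at chr7:120842711-120842860 (the most upstream of 3 annotated starts) and Iars at chr13:49682010-49682159, all 3 on the plus strand. Capitals mark exact matches to 4 motifs searched on both strands: TATAAA, the cAMP response element TGACGTCA, the E-box CACGTG that Myc and Max bind, and TGATGCAA (TTGCATCA on the other strand), the composite element that ATF4 binds.
Eef1a1: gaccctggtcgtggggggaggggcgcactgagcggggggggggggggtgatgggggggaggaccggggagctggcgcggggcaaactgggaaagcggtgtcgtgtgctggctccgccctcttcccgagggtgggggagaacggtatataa
Eef2: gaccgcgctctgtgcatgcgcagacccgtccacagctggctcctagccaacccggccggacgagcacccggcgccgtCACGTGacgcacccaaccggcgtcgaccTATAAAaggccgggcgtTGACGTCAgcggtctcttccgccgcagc
Eef2k: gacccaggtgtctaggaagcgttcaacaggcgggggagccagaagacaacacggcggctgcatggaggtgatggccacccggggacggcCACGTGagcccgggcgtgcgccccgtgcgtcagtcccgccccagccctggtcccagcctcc
Iars: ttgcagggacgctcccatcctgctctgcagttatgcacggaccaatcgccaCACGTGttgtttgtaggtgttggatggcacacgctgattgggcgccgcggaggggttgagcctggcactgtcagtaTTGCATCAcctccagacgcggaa
Eef2 held CACGTG at -43, TATAAA at -15 and TGACGTCA at 3, counted from the start to the motif's first base. Eef2k held CACGTG at -31, Iars held CACGTG at -69 and TTGCATCA at 8, and Eef1a1 held none of the 4. CACGTG was in a window of 14 of 70 genes of the rule (20%), and in 4.47% of 32851 RefSeq promoter windows. A gene counted if the window of any of its annotated starts held the motif, while the share over all promoters counts single windows. Genes with several starts had more chances of a match, so shares of genes and shares of windows are not alike in unit. The ATF4 element was in 0.524% of all windows and in 4 of the 10 cytosolic synthetase genes with an entry, Aars, Iars, Tars and Yars, of which Iars alone was lower in PD1hi. None of the 14 mitochondrial synthetase genes with an entry held it. A match says that these letters are present and is no evidence of binding.

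Among the genes of cap recognition, eIF4F and its helicases (13 genes), 4 were lower and 1 was higher in PD1hi than in Tconv, and the remaining 8 did not pass the test. The lower genes were 30.8% of the class, where 11.9% of all genes tested were called lower. Of the 4, 2 were identifiers both listed as Eif4e3, whose exons overlap by 373 bases, so this share counts overlapping genes separately. Without the PD1hi library of experiment 6, or with libraries rescaled to equal totals, 2 of the 13 were lower and 1 was higher. The 2 lower were then these overlapping identifiers. The differences were concentrated in 2 genes around eIF4E, Eif4e3 and Eif4enif1, while Eif4e itself, the cap-binding subunit, averaged 3483 ± 1179 in PD1hi, 3332 ± 344 in Treg and 3219 ± 434 in Tconv (0.06 ± 0.22 in PD1hi against Tconv, adjusted p = 0.865). Its PD1hi values spread from 2318 to 4676.

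Eif4e3, a cap-binding relative of eIF4E, appears under 2 identifiers. The gene named Eif4e3 in GENCODE M21 is ENSMUSG00000093661. It had 167, 184 and 97.8 in PD1hi libraries, 922, 1151, 1269.6, 965 and 1177 in Treg libraries, and 529.6, 519, 550.3, 487 and 553 in Tconv libraries. None of the ranges overlapped: PD1hi was lowest, Tconv in between and Treg highest. The level was 7.72-fold lower in PD1hi than in Treg (-2.95 ± 0.23, adjusted p = 3.14e-06) and 3.64-fold lower than in Tconv (-1.86 ± 0.23, adjusted p = 7.67e-05), and 2.12-fold higher in Treg than in Tconv (1.09 ± 0.23, adjusted p = 0.00619). All 3 calls held in the 20 alternatives run. Per 1000 scaled counts of Eif4e it came to 43.7 ± 8.84 in PD1hi, 339 ± 37.1 in Treg and 166 ± 24.9 in Tconv.

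The second identifier (ENSMUSG00000030068) is called Gm20696 in GENCODE M21, and its exons overlap those of Eif4e3 by 373 bases and those of Foxp1, a transcription factor of quiescent T cells, by 300 bases on the same strand, so its reads cannot be assigned to Eif4e3 alone. It had 27.7, 34.4 and 45.7 in PD1hi libraries, 231, 323.5, 381, 666 and 415 in Treg libraries, and 349.5, 609, 608, 616 and 964 in Tconv libraries. PD1hi was again far below both (-3.93 ± 0.34 against Tconv, adjusted p = 5.81e-06, and -3.42 ± 0.34 against Treg, adjusted p = 2.29e-05). Treg and Tconv overlapped, with a difference of -0.52 ± 0.34 (adjusted p = 0.4).

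Eif4enif1 (ENSMUSG00000020454) encodes 4E-T, which carries eIF4E into the nucleus and to processing bodies. With all libraries and the settings above, it was the one gene of the rule called higher in PD1hi than in both other populations. Its library values were 2799.99, 2814 and 3004 in PD1hi, 1067, 1314, 1318, 1410.5 and 1615 in Treg, and 844, 1039, 1011, 1132 and 1294 in Tconv, so every PD1hi library exceeded every other library. It rose by 1.5 ± 0.16 against Tconv (adjusted p = 2.47e-05) and by 1.11 ± 0.16 against Treg (adjusted p = 0.000366). Treg and Tconv overlapped (0.39 ± 0.16, adjusted p = 0.136).

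Eif4ebp1, the inhibitor that blocks eIF4E until mTORC1 phosphorylates it, had 195, 248 and 323 in PD1hi libraries, 146, 185.5, 132, 135 and 123 in Treg libraries and 79.9, 99, 162, 118 and 64.1 in Tconv libraries. Each PD1hi library was above every other library. It rose by 1.33 ± 0.27 in PD1hi against Tconv (adjusted p = 0.0031), while 0.82 ± 0.27 against Treg did not pass the test (adjusted p = 0.0621). Per 1000 scaled counts of Eif4e, Eif4ebp1 came to 84.2 ± 50 in PD1hi, 42.7 ± 5.34 in Treg and 32.4 ± 13.3 in Tconv. The PD1hi value of this ratio in experiment 3, 41.6, lay within the ranges of both Treg and Tconv. Without the second Treg library of experiment 3, 1 of the 2 tested eIF4E-binding protein genes was called higher in PD1hi than in Treg. Its relative Eif4ebp2 averaged 579 ± 172 in PD1hi, 479 ± 107 in Treg and 485 ± 32.8 in Tconv (0.21 ± 0.24 in PD1hi against Tconv, adjusted p = 0.562). Eif4ebp3 was under the filter, with means of 4.95 in PD1hi, 2.59 in Treg and 0.85 in Tconv.

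**Figure D3:**
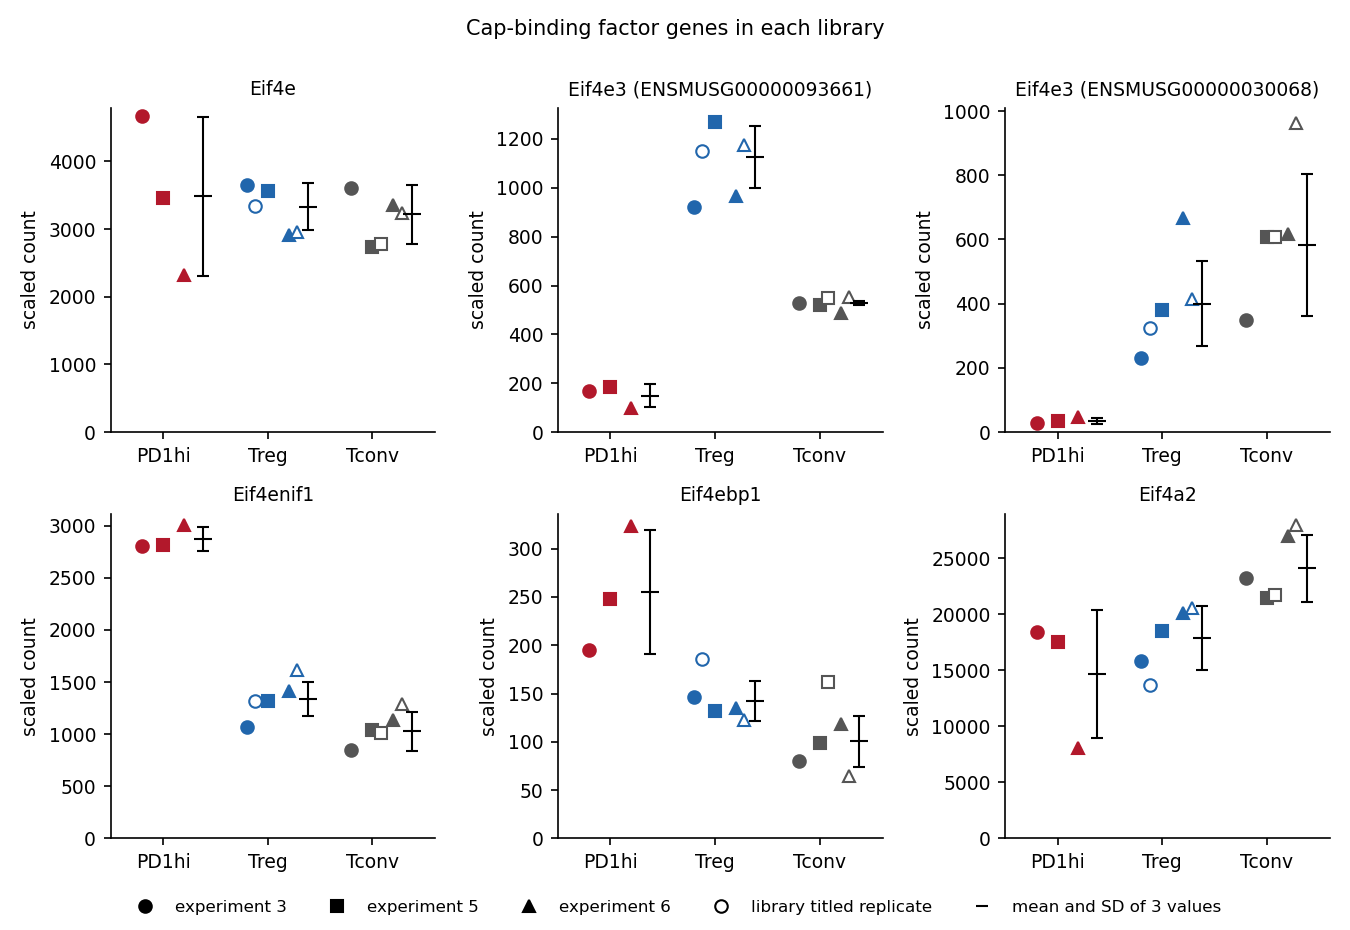
Scaled counts (y axis, from 0) of 6 genes of cap recognition in each library of PD1hi, Treg and Tconv, with symbols and bars as for the elongation factors. The PD1hi libraries lie below all others for both Eif4e3 identifiers and above all others for Eif4enif1 and Eif4ebp1, while the ranges overlap for Eif4e. For Eif4a2 the PD1hi library of experiment 6, at 8087, lies far below the other PD1hi libraries.

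Among the helicase genes, 1 paralog of 3 was called. Eif4a2 had 18396, 17548 and 8087 in PD1hi libraries, 15841, 13704, 18525, 20111 and 20516 in Treg libraries, and 23195, 21475, 21707, 26941 and 27945 in Tconv libraries. PD1hi and Tconv did not overlap, and the difference of -0.8 ± 0.27 passed the test narrowly (adjusted p = 0.046). Without the PD1hi library of experiment 6 it was -0.41 with adjusted p = 0.0627. The call was also lost without any single Treg or Tconv value, and with equal library totals (adjusted p = 0.0637). A block for the experiment (adjusted p = 0.0727) and a fit of PD1hi and Tconv alone ended it too. Its paralog Eif4a1 averaged 2776 ± 219 in PD1hi, 2458 ± 601 in Treg and 2534 ± 476 in Tconv, and Eif4a3, of the exon junction complex, 3339 ± 191, 3118 ± 288 and 3561 ± 61.2 in the same order. Neither passed a test, and no difference between paralogs was tested. Eif4b, a cofactor of the helicase, was lower in PD1hi than in Tconv (-0.54 ± 0.16, adjusted p = 0.0279), with 5942 ± 1056 in PD1hi, 7120.4 ± 467 in Treg and 8599.9 ± 1361 in Tconv. PD1hi and Tconv libraries overlapped. The call was lost without the PD1hi library of experiment 5 or 6 and without Tconv of experiment 3 or 6. It was also lost with libraries rescaled to equal totals and in a fit of PD1hi and Tconv alone.

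Other paralogs of the complex did not pass any test. The scaffold genes Eif4g1, Eif4g2 (whose product lacks the eIF4E binding site) and Eif4g3 differed by 0.19 ± 0.22, -0.51 ± 0.26 and 0.01 ± 0.13 in PD1hi against Tconv (adjusted p of 0.568, 0.188 and 0.961). Eif4g2 was the most abundant of the 3 per length, with 3770.2 in PD1hi, 4196 in Treg and 5117 in Tconv per kb, and its PD1hi libraries spread from 22016 in experiment 6 to 50332 in experiment 3. Eif4e2, a cap-binding protein that does not engage eIF4G, differed by -0.27 ± 0.12 (adjusted p = 0.114), although its 3 PD1hi values (1933 ± 55.2) lay below the Treg values (2159 ± 29.6) and the Tconv values (2341 ± 172) when libraries of an experiment were averaged.

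Of the 13 eIF3 genes, 5 were lower in PD1hi than in Tconv, none was higher and 8 did not pass the test. The lower genes were 38.5% of the class, where 11.9% of all genes tested were called lower. Eif3e had 9545, 7383 and 5489 in PD1hi libraries, 11899, 10707, 10096, 9438 and 10147 in Treg libraries, and 15471, 11088, 11209.9, 13299 and 13265 in Tconv libraries. PD1hi and Tconv did not overlap, and the difference was -0.86 ± 0.19 (adjusted p = 0.00562), or -0.65 without the PD1hi library of experiment 6 (adjusted p = 0.00846). Eif3h followed with -0.57 ± 0.13 (adjusted p = 0.00666), with means of 8369.6 ± 844 in PD1hi, 9473 ± 745 in Treg and 12407 ± 1269 in Tconv. Eif3m, Eif3k and Eif3i were lower by 0.54, 0.49 and 0.43 on the log2 scale (adjusted p of 0.0189, 0.0272 and 0.0337), and each of these was lost without Tconv of experiment 3 or 6. Eif3k and Eif3i were also lost without PD1hi of experiment 5 or Tconv of experiment 5, and Eif3i without PD1hi of experiment 3. With equal library totals both were lost (adjusted p of 0.141 for Eif3k and 0.167 for Eif3i), which left 3 eIF3 genes called. The subunits of the core that bind the ribosome, Eif3a (-0.19) and Eif3c (-0.18), did not pass the test, nor did Eif3b (0.32) and Eif3f (0.45), whose PD1hi values spread widely (483 to 1294 and 509 to 1719). In Treg against Tconv, where 5.66% of all genes tested were called lower, Eif3i was the 1 eIF3 gene called (-0.46 ± 0.13, adjusted p = 0.0403). It was lost with equal library totals (adjusted p = 0.0972), with no filter on low values, without Treg of experiment 5 or 6 and without any single Tconv value. In PD1hi against Treg limma called 0 of 13, with 2 at an unadjusted p under 0.05.

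Genes of start codon selection and of eIF5A, eIF5B and eIF6 gave 0 calls by limma in the 3 comparisons, and 0 at an unadjusted p under 0.05. The 6 scanning genes, Eif1, Eif1a, Eif1ad, Eif1ax, Eif1b and Eif5, ranged from -0.43 to 0.07 in PD1hi against Tconv. Eif1, which keeps the scanning ribosome from starting at a wrong codon, ranked 3 per length in Tconv, with 8789.8 in PD1hi, 9092 in Treg and 10753 in Tconv per kb. Eif5a, the hypusine factor that helps the ribosome through stalling stretches, averaged 12503 ± 758 in PD1hi, 13917 ± 1544 in Treg and 13255 ± 208 in Tconv, and differed by -0.09 ± 0.12 in PD1hi against Tconv (adjusted p = 0.659). Its paralog Eif5a2 (0.15 ± 0.28), the subunit joining factor Eif5b (-0.22 ± 0.14) and Eif6, which keeps the ribosomal subunits apart (0.04 ± 0.21), did not pass either.

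The eIF2 and eIF2B genes form the step that stress kinases control. The class was made by symbol and holds 10 genes, with Eif2a and Eif2d counted beside the Eif2s and Eif2b genes. Of the 10, 1 was lower in PD1hi than in Tconv, where 11.9% of all genes tested were called lower. It was Eif2b3, a subunit of the exchange factor eIF2B (-0.51 ± 0.16, adjusted p = 0.0345). Another, Eif2b1, was lower in Treg than in Tconv (-0.53 ± 0.16, adjusted p = 0.0414), where 5.66% of all genes tested were called lower. The first was lost without the PD1hi library of experiment 5 or 6 and the second without the second Treg library of experiment 3 or Treg of experiment 5 or 6. Both were lost without Tconv of experiment 3 or 6 and with libraries rescaled to equal totals. A fit of PD1hi and Tconv alone also ended the first call, and testing with no filter on low values ended the second. The subunits of eIF2 itself, Eif2s1 (-0.51), Eif2s2 (-0.48) and Eif2s3x (-0.82), did not pass the test in PD1hi against Tconv (adjusted p of 0.0878, 0.0587 and 0.115). For Eif2s3x the PD1hi libraries had 979.8, 813 and 294, the last in experiment 6.

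Cytosolic synthetase genes were lower in PD1hi than in Tconv where they differed. Of the 18, 6 were lower (33.3%, where 11.9% of all genes tested were called lower) and none was higher. The median over the 18 was -0.37. Without the PD1hi library of experiment 6 the median was -0.20 with 5 lower, and with equal library totals it was -0.23 with 4 lower. Iars, the isoleucyl tRNA synthetase, had 1789, 1473 and 937 in PD1hi libraries, 2177, 1077, 1799, 2187 and 1745 in Treg libraries, and 2824, 2668, 2222, 2961 and 2797 in Tconv libraries. It fell by 1 ± 0.21 on the log2 scale (adjusted p = 0.00337), or by 0.74 without the PD1hi library of experiment 6 (adjusted p = 0.00214). Every PD1hi and every Treg library lay below the Tconv libraries, although Treg against Tconv did not pass the test (-0.6 ± 0.21, adjusted p = 0.0823).

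Cars, for cysteine, had 873, 817 and 671 in PD1hi libraries, 1075, 716, 930.1, 1087 and 1092 in Treg libraries and 1266, 1526, 1213, 1654 and 1462 in Tconv libraries, a difference of -0.83 ± 0.16 in PD1hi against Tconv (adjusted p = 0.00189). Nars, for asparagine (-0.62 ± 0.16, adjusted p = 0.0114), and Sars, for serine (-0.55 ± 0.12, adjusted p = 0.0036), were lower as well. Mars, for methionine (-0.5 ± 0.16, adjusted p = 0.0325), and Eprs, the fused enzyme for glutamate and proline (-0.49 ± 0.15, adjusted p = 0.0354), were near the threshold. Mars was lost without PD1hi of experiment 3 or 5 or any single Tconv value, and Eprs without PD1hi of experiment 5 or 6, Treg of experiment 5 or Tconv of experiment 3 or 6. Both were lost in a fit of PD1hi and Tconv alone. Both were also lost with equal library totals, under which 4 of the 18 remained past the test, Cars, Iars, Nars and Sars. The Nars call was lost without Tconv of experiment 3 (adjusted p = 0.0579). The 12 others ranged from -0.47 (Rars) to 0.59 (Vars, SE 0.35).

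In Treg against Tconv 3 of the 18 were lower, where 5.66% of all genes tested were called lower. They were Mars (-0.6 ± 0.16, adjusted p = 0.0222), Cars (-0.52 ± 0.16, adjusted p = 0.0441) and Sars (-0.41 ± 0.12, adjusted p = 0.0326). Each was lost with equal library totals, without Treg of experiment 5 or 6, and without any single Tconv value. Without the second Treg library of experiment 3, Cars (adjusted p = 0.0821) and Sars (adjusted p = 0.0667) were lost and 1 of the 18 was lower. A block for the experiment ended the Cars call too (adjusted p = 0.0567), as did leaving out the Treg values of experiment 3 or the PD1hi value of experiment 5 and testing with no filter on low values. In PD1hi against Treg limma called 0 of the 18 (1 higher without PD1hi of experiment 6, and 1 lower without the second Treg library of experiment 3), with 3 at an unadjusted p under 0.05 and differences from -0.49 (Wars) to 0.31 (Yars). Mars averaged 702 ± 102 in PD1hi, 654 ± 64.3 in Treg and 987 ± 12.8 in Tconv, so that PD1hi and Treg overlapped below Tconv.

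**Figure D4:**
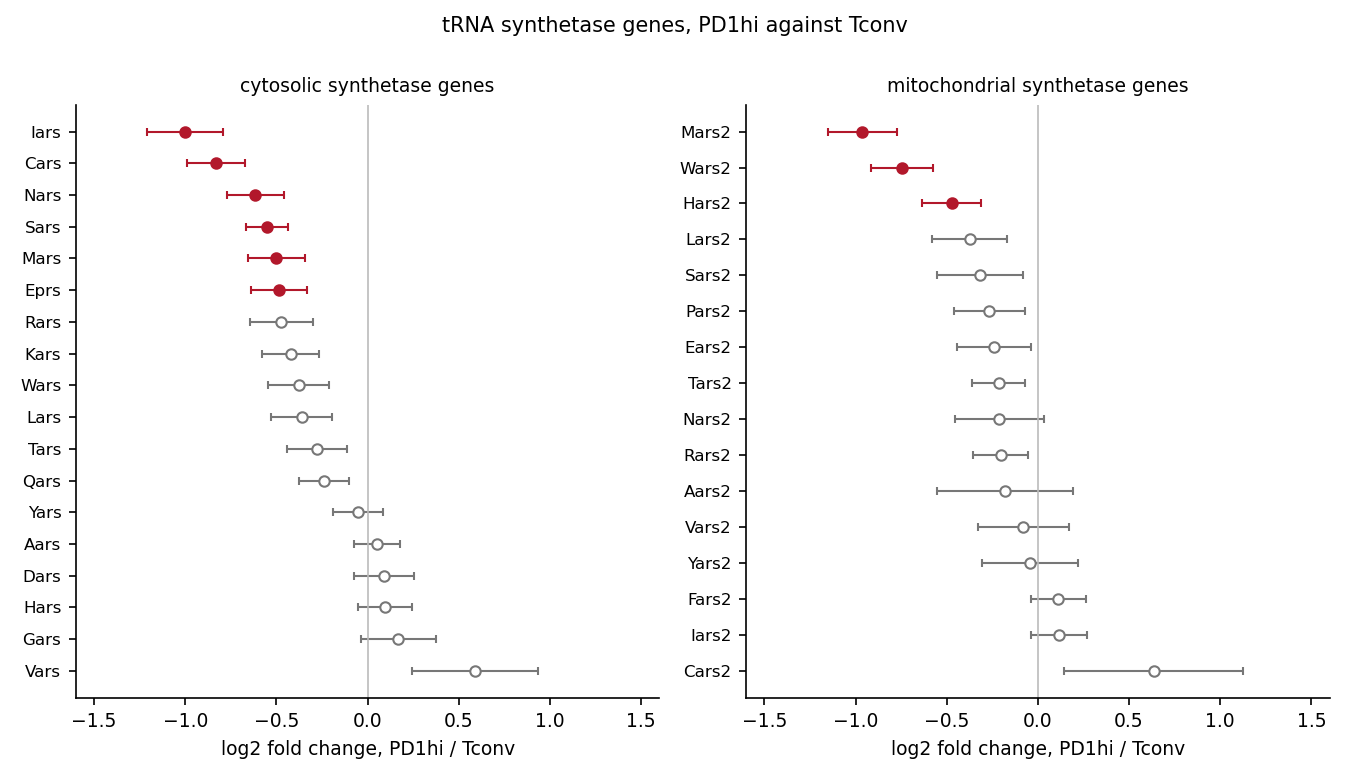
Log2 fold changes in PD1hi over Tconv (x axis) of 18 cytosolic (left) and 16 of 17 mitochondrial (right) tRNA synthetase genes, with SE bars, ordered by value. Filled red points passed the test (limma adjusted p under 0.05) and open points did not. The 9 filled points all lie below 0, from -1 for Iars to -0.47 for Hars2.

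Of the 17 mitochondrial synthetase genes 3 were lower in PD1hi than in Tconv, 17.6% of the class where 11.9% of all genes tested were called lower. Mars2 had 232, 339.5 and 290.3 in PD1hi libraries, 437, 249, 389, 349 and 371 in Treg libraries and 615, 582, 526, 445 and 552 in Tconv libraries, with no overlap between PD1hi and Tconv (-0.96 ± 0.19, adjusted p = 0.00233). Wars2, for tryptophan, averaged 271 ± 31.3 in PD1hi, 327 ± 18.3 in Treg and 454 ± 30 in Tconv (-0.75 ± 0.17, adjusted p = 0.00657). Hars2, for histidine, was at the threshold (-0.47 ± 0.16, adjusted p = 0.0495) and was lost in 13 of 20 alternatives, among them each Treg or Tconv value and PD1hi of experiment 3 or 6 left out in turn. Sars2 was lower in Treg than in Tconv (-0.88 ± 0.24, adjusted p = 0.0262), with 226 ± 15.7 in PD1hi, 153 ± 13.2 in Treg and 290.3 ± 86.5 in Tconv. It was lost without the second Treg library of experiment 3 and without the Treg or Tconv value of experiment 5 or 6. In PD1hi against Treg limma called 0 of the 17, with 1 at an unadjusted p under 0.05.

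For 14 amino acids the table lists both a cytosolic and a mitochondrial enzyme. In PD1hi against Tconv both genes of 1 pair were called lower, those for methionine (Mars -0.5, Mars2 -0.96). In 4 pairs the call was for the cytosolic gene: cysteine (Cars -0.83, Cars2 0.64), isoleucine (Iars -1, Iars2 0.12), asparagine (Nars -0.62, Nars2 -0.21) and serine (Sars -0.55, Sars2 -0.32). In 2 pairs it was for the mitochondrial gene, those for histidine (Hars 0.1, Hars2 -0.47) and tryptophan (Wars -0.38, Wars2 -0.75). Neither gene passed the test in the other 7, among them alanine (Aars 0.05, Aars2 -0.18), leucine (Lars -0.36, Lars2 -0.37), arginine (Rars -0.47, Rars2 -0.2), threonine (Tars -0.28, Tars2 -0.21), valine (Vars 0.59, Vars2 -0.08) and tyrosine (Yars -0.05, Yars2 -0.04). The difference between the genes of a pair was not tested.

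Lars2, for leucine in mitochondria, stood apart in level. It had 5626 scaled counts per kb in PD1hi, 5859 in Treg and 7188 in Tconv, while the other 16 mitochondrial synthetase genes lay between 22 and 364 in all 3 populations, and the 18 cytosolic ones between 120 and 1221. Library values were 52909, 54224 and 80041 in PD1hi, 66358, 99942, 54888, 59013 and 54798 in Treg, and 90211, 76127, 70967, 77168 and 73633 in Tconv. The highest PD1hi library was that of experiment 6 and the highest Treg library the second one of experiment 3, the libraries that stood apart over all genes. With all libraries, no comparison of Lars2 passed the test (-0.37 ± 0.21 in PD1hi against Tconv, adjusted p = 0.214). The remaining PD1hi libraries, 52909 and 54224, and the remaining Treg libraries, 54798 to 66358, lay below every Tconv library. Without PD1hi of experiment 6, 3 of the 17 genes of the class were lower in PD1hi than in Tconv. Hars2 was not among them (adjusted p = 0.115), and whether Lars2 was is not reported here. Without the second Treg library of experiment 3, Treg against Tconv gave 0 calls among the 17. Without Lars2, the mitochondrial synthetase genes took 0.0416% ± 0.0032 of reads in PD1hi, 0.0416% ± 0.0025 in Treg and 0.0444% ± 0.0032 in Tconv.

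The 4 tested Argonaute genes and the 4 pseudogenes gave 0 calls by limma in the 3 comparisons, with 1 Argonaute gene at an unadjusted p under 0.05 in Treg against Tconv. Eif2c4 (Ago4), under the filter, had 11.3, 36.4 and 20.7 in PD1hi libraries, which is 66 reads in all, against 16 reads over 5 Treg libraries and 11 reads over 5 Tconv libraries. Transcripts of elongation and eIF3 factor genes have processed pseudogenes elsewhere in the genome, and reads that match a parent gene and its copy may be counted at either, so their levels carry that uncertainty.

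Genes that act on the same steps were read beside them. Of 17 tested genes of the integrated stress response and its kinases, 1 was higher and 4 were lower in PD1hi than in Tconv. Over all genes tested, 14.2% were called higher and 11.9% lower. Trib3, a pseudokinase target of ATF4, fell by 2.27 to 31.6 ± 12.3 in PD1hi, against 150 ± 17.5 in Tconv (adjusted p = 0.000184), and Ppp1r15a, which brings the phosphatase to eIF2, fell by 1.31 (adjusted p = 0.00908). The serine synthesis genes split, with Phgdh at -0.86 (adjusted p = 0.00202) and Psat1 at 0.81 (adjusted p = 0.00653). Atf4 itself differed by -0.36 and did not pass (adjusted p = 0.13). Against Treg 2 of the 17 were higher and 3 lower in PD1hi, where 8.16% and 8.39% of all genes were called. Among the lower was the double-stranded RNA kinase Eif2ak2 at -1.04 (adjusted p = 0.00429), with 595 ± 145 in PD1hi, 1207 ± 190.0 in Treg and 553 ± 98.3 in Tconv.

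Of 26 genes of mTORC1 and cap control, 1 was higher and 5 were lower in PD1hi than in Tconv, where 14.2% and 11.9% of all genes were called. Cyfip1, whose product can hold eIF4E away from eIF4G, averaged 9843 ± 2733 in PD1hi, 4150.1 ± 464 in Treg and 976 ± 92.8 in Tconv (3.29 in PD1hi against Tconv, adjusted p = 4.43e-07). Sesn1, an inhibitor of mTORC1, averaged 701 ± 104 in PD1hi, 5415 ± 388 in Treg and 3277 ± 321 in Tconv (-2.23, adjusted p = 6.85e-07). The ribosomal protein gene Rps6 fell by 1.15 (adjusted p = 0.000114), and Larp1, which binds the pyrimidine-rich starts of mRNAs for elongation factors and ribosomal proteins, fell by 1.02 (adjusted p = 0.000139). Mtor and Rptor did not pass the test, while Mlst8 of the same list fell by 0.78 (adjusted p = 0.00803).

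Of the 12 tested partners and relatives of the synthetases, 2 were lower in PD1hi than in Tconv and none was higher, where 11.9% and 14.2% of all genes were called. The 2 were the scaffold genes of the multisynthetase complex Aimp1 (-0.6, adjusted p = 0.00985) and Aimp2 (-0.76, adjusted p = 0.00665). Of 10 genes of termination and ribosome recycling, 1 was higher, Gspt2, whose product is a GTPase of termination (3.68, adjusted p = 0.00145), with 22 ± 6.17 in PD1hi, 18 ± 10.6 in Treg and 1.02 ± 1.36 in Tconv. Of the 8 mitochondrial translation factor genes limma called 0 in the 3 comparisons, with 2 at an unadjusted p under 0.05 in Treg against Tconv. Of 8 Myc network genes, 2 were higher and 2 lower in PD1hi than in Tconv. Myc, an activator of many genes of this kind, averaged 812 ± 151 in PD1hi, 2924 ± 449 in Treg and 3171 ± 277 in Tconv (-1.98 in PD1hi against Tconv, adjusted p = 6.26e-06). Of 16 cell cycle genes 13 were higher and none lower in PD1hi than in Tconv (median 1.78). In Treg against Tconv 12 were higher and none lower (median 1.21), where 8.73% and 5.66% of all genes were called.

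Markers of other cells also differed between the populations. In PD1hi against Tconv, 14.2% of all genes tested were called higher and 11.9% lower. Of 5 tested B cell markers 2 were higher in PD1hi than in Tconv, with summed levels over all 10 listed genes of 1704.5 to 2329 in PD1hi, 921 to 1159 in Treg and 243 to 435 in Tconv. Against Treg, 1 of the 5 was higher and 1 lower in PD1hi (median -0.02), where 8.16% and 8.39% of all genes were called. Pax5, 1 of the 10 and under the filter, had means of 6.48 in PD1hi, 0.54 in Treg and 1.07 in Tconv. Plasma cell markers were higher for 2 of 5 (summed 3927 to 7391 in PD1hi, 6662 to 9618 in Treg, 2594 to 3267 in Tconv). CD8 T and NK cell markers were lower for 3 of 7 (2589.9 to 4040 in PD1hi, 1064 to 1405 in Treg, 5846 to 7985 in Tconv). Cd8a, 1 of the 8 listed and under the filter, had means of 6.78 in PD1hi, 5.55 in Treg and 8.43 in Tconv. Of 8 myeloid markers 1 was higher and 1 lower (460 to 634 in PD1hi, 321 to 818 in Treg, 404 to 779 in Tconv), and of 3 erythroid markers none was called. Pan T cell genes were higher for 3 of 8 (206091 to 216251 in PD1hi, 137945 to 147010 in Treg, 177867 to 185951 in Tconv). The part of these markers and of the cell cycle genes in the results above was not tested.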

How the data were processed

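RNA-seq was measured in 13 libraries of sorted mouse CD4 T cells. The labels' protocols give Trizol extraction, depletion of ribosomal RNA with a low-input RiboMinus kit and Ion Total RNA-seq libraries. The submitters' processing notes name the tools Picard, limma and HTSeq 0.5.4 and the genome builds mm9, hg19 and GRCh37, with no roles. Aligner and strand setting: not given in the sources used here. In the authors' 1 deposited table the unit is a signal, a scaled count to which 1 was added. Minus that 1, each value is a whole multiple of what 1 read is worth in its library, within 0.001 reads. The 1 was subtracted, and the constants gave the depths.

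The labels do not say whether libraries titled replicate are other animals, so the p-values cover the spread between samples, possibly a technical one. Such libraries differed by more than sampling noise and were averaged, which left 9 values, 3 per population. Genes with a mean of at least 10 were tested with limma 3.58.1 in R 4.3.3 (trend on mean level, 2-sided, 1 fit for the 3 populations) on log2(scaled count + 1), which understates the change of low genes. The code was tested on simulated data. Lengths are merged exons of GENCODE M21 (GRCm38), in which 98 of the 100 identifiers were found. The text names, in each comparison, the 8 genes with the largest called changes in each direction. It also names all paralog and same-letter synthetase sets by rule, and other called genes chosen after their values were seen. From the related lists it names up to 4 called genes each, and Atf4, Mlst8, Mtor, Rptor and marker genes outside that rule. The members, the classes and the related gene lists were chosen with earlier results of these data known. By the correlation of deviations from the population means, same-numbered experiments paired Treg with Tconv (0.218 to 0.298 in the 3 pairs), while for PD1hi not every pair was over 0.1. The experiment is named in the titles. Alternatives covered the experiment block, single libraries, pseudocount, filter, scaling and left-out values. Some single genes are not reported here by name.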

Additional observations from a re-analysis of the deposited data

Results flagged for a closer look

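Single libraries far from the other 4 of their group were looked for with Dixon's test in the 5 Treg and the 5 Tconv libraries, over the genes called and the class shares of reads. Of 82 such tests 5 passed the critical value of 0.71, and chance alone gives about 1 in 20. Sars was at 4511 in the first Treg library of experiment 3, above the 3679 to 3835 of the other Treg libraries. Eif3h was at 13860 in the Tconv library of experiment 3, above 11274 to 11954 in the others. Wars2 was at 568.3 in the first Tconv library of experiment 6, above 409.6 to 447 in the others. The second Treg library of experiment 3 was set apart in 2 classes: eIF4F and helicase genes took 0.3565% of its reads (0.46% to 0.486% in the other Treg libraries), and mitochondrial synthetase genes took 0.5758% (0.321% to 0.365% in the others), most of it from Lars2.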

How the results depend on the processing

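Of the 44 calls, 24 held in all alternatives run: 17 of 27 in PD1hi against Tconv, 5 of 5 in PD1hi against Treg and 2 of 12 in Treg against Tconv (Eef1g and Eif4e3). No value with a call changed sign. Leaving out 1 of the 9 values in turn gave 15 to 29 lower and 2 to 3 higher genes in PD1hi against Tconv, 4 to 6 lower and 1 to 2 higher in PD1hi against Treg, and 1 to 14 lower and 1 to 2 higher in Treg against Tconv. For Treg against Tconv the lower genes numbered 1 without Treg of experiment 5, 2 without Treg of experiment 6 or without Tconv of experiment 3 or 6, and 5 without Tconv of experiment 5. Fewer values leave fewer degrees of freedom. With libraries rescaled to equal totals, the median of all genes moved to 0.14 in PD1hi against Tconv and the lower genes numbered 17, and in Treg against Tconv 5. Without the second Treg library of experiment 3, Treg against Tconv gave 5 lower genes, and PD1hi against Treg gave 2 higher and 6 lower. PD1hi against Treg also gave 2 higher with no filter on low values and with only both populations in the fit. PD1hi against Tconv gave 3 higher under each of these settings. With only both populations in the fit, lower genes numbered 19 in PD1hi against Tconv and 13 in Treg against Tconv. With no filter they numbered 24 and 7. The fit of both populations alone ended the PD1hi against Tconv calls of Eif2b3, Eif4a2, Eif4b, Eprs, Hars2 and Mars. The cause of these changes was not tested. Leaving out that library and the PD1hi library of experiment 6 together, an alternative chosen after seeing the data, gave 22 lower genes in PD1hi against Tconv and 15 in Treg against Tconv.

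Same-numbered PD1hi values did not all pair with Treg or Tconv (correlations of deviations -0.07 to 0.197), while Treg and Tconv did. With the experiment as a replicate block, lower genes numbered 26, 5 and 10 and higher genes 2, 1 and 2 in PD1hi against Tconv, PD1hi against Treg and Treg against Tconv. The block ended 1 call in Treg against Tconv, Cars, and 2 in PD1hi against Tconv, Eif4a2 and Hars2, and no other of the 44. A count model on recovered whole reads was not run. With 3 values per population the smallest called difference was -0.41, for Sars in Treg against Tconv.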
